A study of Homo sapiens with 6 samples.

Results

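Genes that report or restrain Wnt/beta-catenin signaling were described in H295R cells, an established human adrenocortical carcinoma line, and in H295R-PM-Ptc+ cells, a fraction of that line. They are CTNNB1, LEF1, TCF7, AXIN2, NKD1, NOTUM, APCDD1, ZNRF3, RNF43 and LGR5. These 10 genes were taken by name from the 57341 named genes of the count table, and all 10 passed the filter on low counts. RNA was sequenced in 3 libraries labelled as the parental line and 3 labelled as the sorted cells, all untreated and grown in the same medium. The H295R-PM-Ptc+ cells were sorted by flow cytometry for the Hedgehog receptor Patched at the plasma membrane and then amplified, so they are a selected and expanded pool rather than a clone or an engineered line. Nothing in the sources says that the 3 replicates of a group were separate sorts or cultures, so that p-values here measure the spread between these libraries, which may be technical.

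In Wnt signaling, beta-catenin is kept low by a destruction complex built on axin and APC. A Wnt ligand at Frizzled and LRP receptors halts that complex, and beta-catenin then enters the nucleus and works with the TCF/LEF factors on target genes. Many of these targets are brakes on the pathway itself, and their RNA is often used as a readout of its activity. Mutations that stabilize beta-catenin or remove ZNRF3 are among the common lesions of adrenocortical carcinoma, and H295R is known to carry an activating point mutation of CTNNB1. The counts give RNA levels and say nothing about that mutation, the protein or its location.

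The library names need a caution. PTCH1, whose protein was the basis of the sort, had normalized counts of 21.3 ± 2.56 CPM (read counts scaled to a common library size and given as CPM, mean and SD, n = 3) in the libraries with the parental label and 12.2 ± 2.19 CPM in those with the PM-Ptc+ label, so its log2 difference was -0.81 (SE 0.147, adjusted p = 0.0207 by edgeR). It lost the call without parental replicate 2, parental replicate 3 or Ptc+ replicate 2, with an adjusted p of at most 0.0921. In the study's own table of normalized values, 6 of 6 columns are scaled copies of a deposited column that carries the opposite group's name, over the 942 genes compared. PTCH1, as the gene of the sorted protein, and that table both go against the deposited names, and the counts alone cannot settle which names are right. The names of the deposited table are kept below, as parental-labelled and Ptc+-labelled libraries, and every fold change is Ptc+-labelled over parental-labelled. If the names of that other table hold, each direction below turns around. LGR5 and LEF1, called higher below, would then be lower in the sorted cells.

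The libraries held between 23264403 and 25813247 counted fragments. Replicate 1 of each group carries the code 1801 in its label. The deviations of these libraries from their group means correlated at 0.594 with each other and at -0.443 to -0.327 with those of the other group's replicates 2 and 3. All 9 adrenocortical markers examined, among them NR5A1, CYP11A1, STAR and CYP17A1, had counts in these libraries, with a summed level of 885 to 1166 CPM in the parental-labelled and 963 to 1222 CPM in the Ptc+-labelled ones. One of the 9, CYP21A2, passed the test between groups. Among 3 endothelial markers PECAM1 and VWF, and among 3 leukocyte markers PTPRC and CD3E, had at most 3 counts in any library, and the summed endothelial level was 0.0394 to 0.167 CPM against 0.121 to 0.235 CPM. The leukocyte sum, nearly all of it CD14, was 0.607 to 1.14 CPM against 1.06 to 1.29 CPM. Of the 4 fibroblast markers LUM had no counts, DCN stayed at or under 0.196 CPM, and FAP carried the sum, which was 36.3 to 40.3 CPM against 44.5 to 51.6 CPM. The part of these markers in the results was not tested, and in bulk RNA a change in the share of cells and a change per cell cannot be told apart.

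Among the 10 genes, LGR5 and LEF1 were higher in the Ptc+-labelled libraries, LGR5 by 1.94-fold and LEF1 by 1.36-fold, and none was lower. The membrane ubiquitin ligases ZNRF3 and RNF43 stood 1.29-fold and 1.22-fold higher without passing when all libraries were treated as unpaired. CTNNB1 itself, at 0.938-fold, did not pass. Tests were run with edgeR's quasi-likelihood F-test over 16710 genes with Benjamini-Hochberg adjustment. By this test 2 of the 10 genes were called, both higher, against 3.73% of all genes called in either direction, 2.42% called higher and 1.32% called lower. No member was called lower, and none had an unadjusted p under 0.05 in that direction or was called lower by DESeq2 or limma-voom, while 4 had such a p in the higher direction (LGR5, LEF1, ZNRF3 and RNF43). Of all genes tested, 9.6% had such a p in the higher and 7.67% in the lower direction.

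Replicates with the same number deviated together, so the comparison was also made within pairs. With the replicate number as a block, 7 of the 10 genes were called, all higher: LGR5, LEF1, ZNRF3, RNF43, AXIN2, NKD1 and NOTUM. The block gave 22.5% of all genes a call, 12.1% in the higher and 10.4% in the lower direction. The same 7 genes were higher in each of the 3 pairs, as were 26.9% of all genes tested. In 5 of them, LGR5, LEF1, ZNRF3, RNF43 and AXIN2, every Ptc+-labelled library lay above every parental-labelled one, as in 12.4% of all genes. For a single gene an exact permutation test of 3 libraries against 3 cannot give a p below 0.1. The median log2 fold change was 0.20 over the 10 genes and 0.00 over all genes tested.

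**Figure D1:**
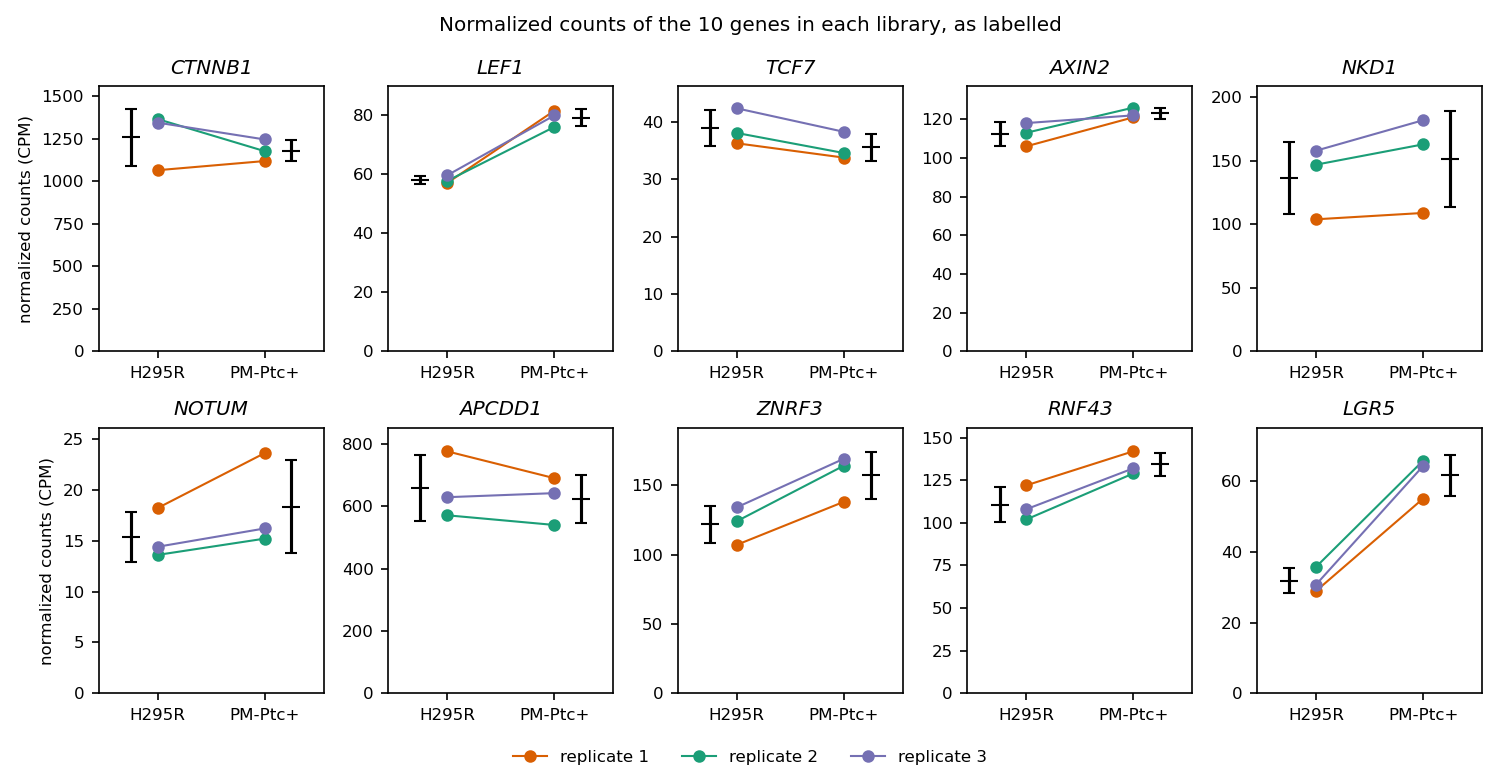
Normalized counts (CPM, linear axes from 0) of the 10 genes in each of the 6 libraries, with points of the same color and a line joining replicates of one number and black bars giving the mean and SD of 3 libraries. LGR5 rises in all 3 pairs without overlap between the groups, from at most 35.7 to at least 55 CPM, while in NKD1 and NOTUM the libraries of replicate 1 lie apart from the others in both groups.

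CTNNB1 encodes beta-catenin, the effector of the pathway and also a component of cadherin junctions. It lies on chromosome 3 from 41194837 to 41260096 (GRCh38, plus strand). The parental-labelled libraries had 1066, 1367 and 1346 CPM in replicates 1 to 3 and the Ptc+-labelled ones 1120, 1178 and 1247 CPM. The groups overlapped, and the lowest value of all was parental-labelled replicate 1. The log2 fold change was -0.09 with a 95% confidence interval of -0.34 to 0.15 (adjusted p = 0.747), which leaves room for a change between 0.791-fold and 1.11-fold. Per kilobase of annotated exon CTNNB1 was the most abundant of the 10 genes, at 190 ± 25.4 CPM per kb in the parental-labelled libraries, a level above 99.1% of the genes tested.

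LEF1 is a DNA-binding partner through which beta-catenin activates genes, and is itself a target of the pathway. It lies on chromosome 4 from 108047545 to 108168956 (minus strand). Its level was 57.1, 57.8 and 59.7 CPM in the parental-labelled libraries and 81.6, 76.1 and 80 CPM in the Ptc+-labelled ones. The spread within either group was a small part of the gap between them. LEF1 rose by 0.44 on the log2 scale (SE 0.0695, 95% confidence interval 0.29 to 0.60, adjusted p = 0.0099), and 9.74e-06 with the replicate block. The adjusted p was 0.0581 without parental-labelled replicate 3 and 0.0665 without Ptc+-labelled replicate 3, at log2 fold changes of 0.45 and 0.43. LEF1-AS1, which overlaps LEF1 on the opposite strand, held 4 to 16 counts.

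TCF7 encodes TCF-1, a second factor of the same family, and lies on chromosome 5 from 134114711 to 134151865 (plus strand). It had 36.3, 38.1 and 42.4 CPM in the parental-labelled and 33.8, 34.6 and 38.3 CPM in the Ptc+-labelled libraries. Each pair was lower in the Ptc+-labelled library, by 0.10 to 0.15 on the log2 scale, but the groups overlapped. Neither the plain fit (log2 fold change -0.13, 95% confidence interval -0.33 to 0.07, adjusted p = 0.52) nor the blocked one (95% confidence interval -0.25 to -0.01, adjusted p = 0.116) gave a call. SKP1 overlaps TCF7 on the other strand with 7852 to 9982 counts, so the TCF7 count rests on the strand setting of the counting.

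The starts of the members were searched for the short motifs that TCF/LEF factors bind, which were CTTTGAA or CTTTGAT, and also CTTTGTA or CTTTGTT, on both strands. RefSeq promoter windows (GRCh38.p14, 250 bases before to 50 after a start) matched 5 of the 10 genes, CTNNB1, LEF1, TCF7, RNF43 and APCDD1, with 7 windows. One of the 7 windows held a motif, against 13.8% of all 35116 windows. It belongs to an internal start of TCF7, and its 250 bases before that start (chr5:134123368-134123617, plus strand) are shown because they hold the one match among the members, in capitals, which is CTTTGTT read on the minus strand and begins 50 bases before the start.
TCF7 internal start: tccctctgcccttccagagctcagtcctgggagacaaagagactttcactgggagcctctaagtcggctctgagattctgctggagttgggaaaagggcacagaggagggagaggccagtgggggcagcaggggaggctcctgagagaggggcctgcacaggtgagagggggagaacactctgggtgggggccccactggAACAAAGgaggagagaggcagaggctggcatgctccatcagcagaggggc
A match of 7 letters is a description of the sequence and shows no binding.

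Within the TCF/LEF family the shares of LEF1 and TCF7 did not overlap between the groups. Of the summed CPM per kb of LEF1, TCF7, TCF7L1 and TCF7L2, LEF1 made up 60.4%, 60.4% and 57.8% in the parental-labelled libraries and 67.6%, 65.6% and 65.1% in the Ptc+-labelled ones. The share of TCF7 was 21.2% ± 0.697 and 15.8% ± 0.855 (SD, n = 3 each), with no overlap between the groups. TCF7L2 made up 18.1% ± 0.916 and 17.5% ± 0.723, and its libraries overlapped. These families were grouped after the values were seen, and the shares restate the fold changes of their members with no further test.

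LGR5 is a receptor for R-spondins, secreted proteins that raise Wnt signaling by removing ZNRF3 and RNF43 from the membrane, and it marks stem cells in several epithelia as well as being a Wnt target. It lies on chromosome 12 from 71439770 to 71586310 (plus strand). The parental-labelled libraries held 691, 906 and 760 counts, or 28.9, 35.7 and 30.7 CPM, and the Ptc+-labelled ones 1406, 1633 and 1485 counts, or 55, 65.7 and 64.2 CPM. Every Ptc+-labelled library thus exceeded the highest parental-labelled one by a wide margin. LGR5 rose by 0.95 on the log2 scale (SE 0.105, 95% confidence interval 0.72 to 1.19, adjusted p = 0.00155). It was the only member called under each of the 13 alternatives tried, with an adjusted p of at most 0.0163. TSPAN8, which overlaps LGR5 on the opposite strand, had 18 to 67 counts. Among the R-spondin receptors LGR4, LGR5 and LGR6, LGR5 made up 61.1% ± 2.27 of the summed CPM per kb in the parental-labelled and 72.3% ± 1.15 in the Ptc+-labelled libraries.

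ZNRF3 and RNF43 are related transmembrane ubiquitin ligases that clear Frizzled receptors from the cell surface, and both are feedback targets of beta-catenin. ZNRF3 lies on chromosome 22 from 28883592 to 29057487 (plus strand) and had 107, 124 and 134 CPM in the parental-labelled against 138, 164 and 169 CPM in the Ptc+-labelled libraries. The groups did not overlap, and the gap between the highest parental-labelled and the lowest Ptc+-labelled library was small, with the replicates of code 1801 the lowest of both groups. Its log2 fold change was 0.37 (SE 0.109, 95% confidence interval 0.12 to 0.61, unadjusted). The adjusted p was 0.113, and 1.84e-05 in the blocked fit. The 3 pairs differed by 0.37, 0.40 and 0.33 (log2).

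RNF43 lies on chromosome 17 from 58352500 to 58417595 (minus strand). It had 122, 102 and 108 CPM in the parental-labelled and 142, 129 and 132 CPM in the Ptc+-labelled libraries, again without overlap. Here the code 1801 libraries were the highest of each group. RNF43 differed by 0.28 on the log2 scale (SE 0.0891, 95% confidence interval 0.08 to 0.48). Its adjusted p was 0.134, and 0.000311 in the blocked fit. Without parental-labelled replicate 1 it passed unblocked as well, at 0.36 (log2, adjusted p = 0.0357). SUPT4H1, which overlaps RNF43 on the same strand, held 2006 to 2283 counts. Of the summed CPM per kb of the ligases, ZNRF3 made up 54.2% ± 4.94 and 55.6% ± 3.82 in the parental-labelled and Ptc+-labelled libraries, with overlap between the groups. Within the pairs its share was higher in the Ptc+-labelled library each time, at 48.5% and 51.2%, 56.8% and 57.8%, and 57.4% and 57.9%, with no test.

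AXIN2 is a scaffold of the destruction complex and one of the most used readouts of beta-catenin activity. It lies on chromosome 17 from 65528563 to 65561647 (minus strand). Its level was 106, 113 and 118 CPM in the parental-labelled libraries and 121, 126 and 122 CPM in the Ptc+-labelled ones. The groups did not overlap, though the step from 118 to 121 CPM between them was smaller than the range within the parental-labelled group. AXIN2 differed by 0.13 on the log2 scale (95% confidence interval -0.03 to 0.30, adjusted p = 0.408), and it passed narrowly with the block (adjusted p = 0.0494). In linear terms the unblocked interval runs from 0.978-fold to 1.23-fold. AXIN2 made up 81.9% ± 1.87 and 82.4% ± 0.304 of the summed CPM per kb of AXIN1 and AXIN2, with overlap.

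NKD1 encodes a cytoplasmic inhibitor that binds Dishevelled and lies on chromosome 16 from 50548330 to 50640739 (plus strand). The values were 104, 147 and 158 CPM in the parental-labelled and 109, 163 and 182 CPM in the Ptc+-labelled libraries. The code 1801 libraries were the lowest of both groups, by -0.55 and -0.67 (log2) against the mean of replicates 2 and 3. The difference between groups was smaller than this, at a log2 fold change of 0.15 (95% confidence interval -0.31 to 0.61, adjusted p = 0.78), and 0.0333 with the block. Its value was -0.01 (log2) without parental-labelled replicate 1 or without Ptc+-labelled replicate 3. NKD2, the paralog, had 8 to 20 counts, and NKD1 made up at least 99.1% of the summed CPM per kb of both.

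NOTUM is a secreted carboxylesterase that removes the lipid from Wnt ligands. It lies on chromosome 17 from 81952507 to 81961840 (minus strand) and had 18.2, 13.6 and 14.4 CPM in the parental-labelled and 23.6, 15.2 and 16.2 CPM in the Ptc+-labelled libraries. Replicate 1 was the highest of each group, by 0.38 and 0.59 (log2), opposite to NKD1. NOTUM differed by 0.25 on the log2 scale (95% confidence interval -0.15 to 0.66, adjusted p = 0.538), and the blocked fit called it (adjusted p = 0.0342). Without Ptc+-labelled replicate 1 it was 0.02.

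APCDD1 is a membrane glycoprotein that binds Wnt ligands and their co-receptors and inhibits signaling. It lies on chromosome 18 from 10454628 to 10489948 (plus strand). It was abundant, with 776, 571 and 629 CPM in the parental-labelled and 690, 540 and 642 CPM in the Ptc+-labelled libraries, above 98.1% of the genes tested per kb. The pairs did not share a direction. On the log2 scale the difference was -0.08 (95% confidence interval -0.38 to 0.22), and the gene passed neither without nor with the block (adjusted p = 0.833 and 0.282).

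**Figure D2:**
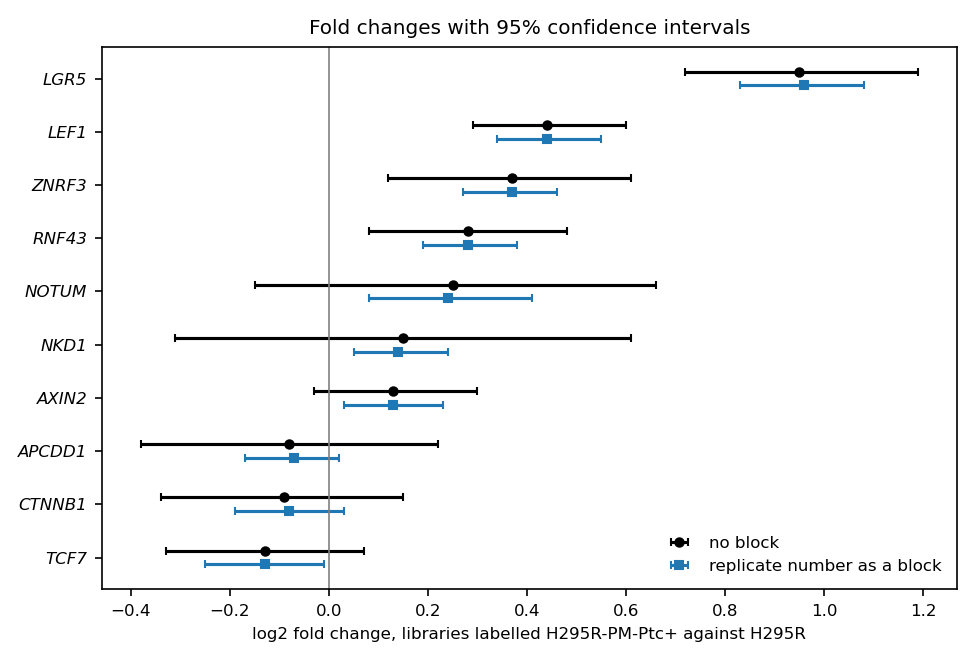
Log2 fold changes of the 10 genes, Ptc+-labelled over parental-labelled libraries, with unadjusted 95% confidence intervals, from the fit without a block (black circles) and with the replicate number as a block (blue squares). The point estimates barely move, from 0.95 to 0.96 for LGR5, while the intervals narrow with the block and those of AXIN2, NKD1 and NOTUM then lie above 0 and that of TCF7, which was not called, below 0.

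**Figure D3:**
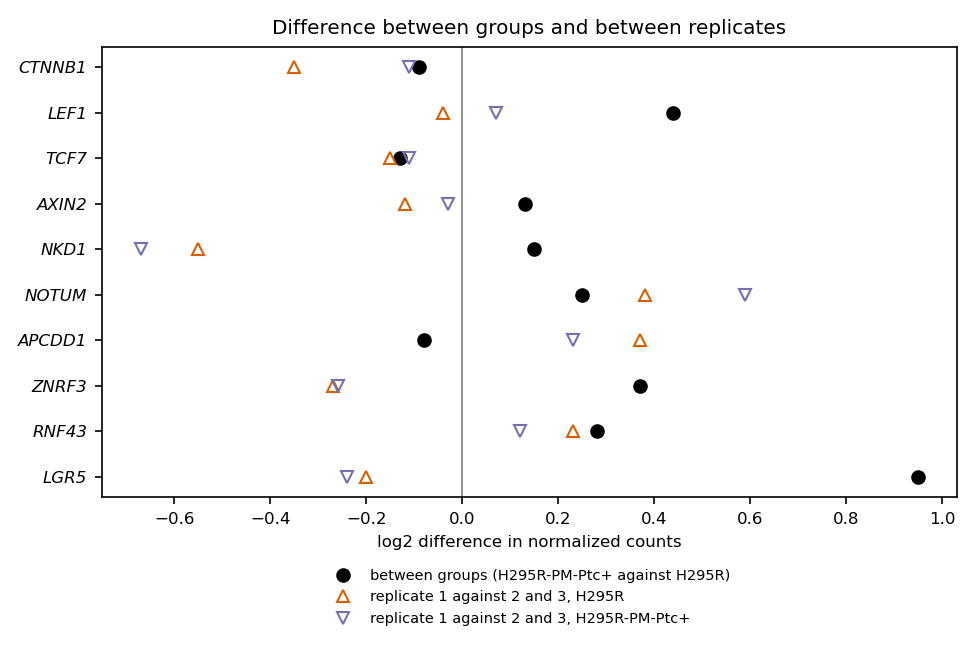
For each gene, the log2 fold change between groups (filled circles) and the log2 difference of replicate 1 from the mean of replicates 2 and 3 within each group (open triangles). The difference between groups is larger in size than both differences between replicates for LGR5, LEF1, ZNRF3, RNF43 and AXIN2 (0.13 against -0.12 and -0.03), smaller than both for CTNNB1, NKD1, NOTUM and APCDD1, and between them for TCF7.

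Per kb the 10 genes kept nearly the same order in both groups. CTNNB1 and APCDD1 stood well above the rest, at 190 ± 25.4 and 111 ± 17.8 CPM per kb in the parental-labelled libraries. AXIN2 followed at 21.5 ± 1.12, then ZNRF3 at 17.5 ± 1.98, NKD1 at 15.3 ± 3.20 and RNF43 at 14.7 ± 1.42 CPM per kb, where neighbors from ZNRF3 to RNF43 overlapped between libraries. LEF1 (10.9 ± 0.257), LGR5 (6.05 ± 0.665), NOTUM (5.10 ± 0.812) and TCF7 (3.87 ± 0.314 CPM per kb) came last, with overlap only between LGR5 and NOTUM. In the Ptc+-labelled libraries LGR5 reached 11.7 ± 1.10 CPM per kb and no longer overlapped NOTUM at 6.07 ± 1.52, the libraries of AXIN2 and ZNRF3 came to overlap, and those of RNF43, NKD1 and LEF1 overlapped in turn.

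The 10 genes were set beside their chromosomal neighbors, the 25 tested genes on each side. The median log2 fold change of these neighbors lay between -0.12 (LEF1) and 0.10 (TCF7). LGR5 stood 0.95 above its median and had rank 4 of 51 from the highest, and LEF1 stood 0.56 above its own with the same rank. Of the 50 neighbors of LGR5, 3 were called higher, KCNC2 (log2 fold change 1.63), GLIPR1 (0.95) and a gene under a clone name (1.36), and 0 lower. Of the 50 of LEF1, 2 were called higher and 2 lower, against 2.42% and 1.32% of all genes. The called genes around LEF1 included the secreted Wnt antagonist DKK2, at 2.66 ± 0.597 against 13.8 ± 2.58 CPM (log2 fold change 2.37, adjusted p = 5.10e-04). COL25A1 was higher as well (log2 fold change 1.11, adjusted p = 0.00291) and ELOVL6 was lower (-0.54, adjusted p = 0.00977). CXXC4, which binds Dishevelled, fell from 1.33 ± 0.284 to 0.575 ± 0.138 CPM (log2 fold change -1.22, adjusted p = 0.0486). These neighbors were named after their values were seen.

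The pattern of AXIN2 over the 6 libraries was compared with every tested gene by Pearson's r of the log2 values, as a description over libraries that share a line and replicate codes. Outside the 10 genes PCMT1 (0.9925), INPP5A (0.9885), SLC2A13 (0.9880) and a gene listed under a clone name at 0.325 CPM (0.9884) were among the most alike of 16710 genes. None of these 4 passed the test between groups, with adjusted p-values of 0.213 to 0.454. Among the members r was 0.94 for ZNRF3, 0.86 for LGR5, 0.83 for LEF1, 0.58 for NKD1, 0.47 for RNF43, 0.16 for CTNNB1, 0.05 for NOTUM, -0.18 for TCF7 and -0.59 for APCDD1. A higher r than that of ZNRF3, LGR5 and LEF1 was held by 147, 756 and 966 tested genes, and for the other 6 members by 19.9% to 79.8% of all tested genes.

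The other genes of the pathway were followed in 5 lists with 69 genes, of which 60 passed the filter. GSK3A was higher, LRP5 and AFF3 were lower, and 57 did not pass. The 3 calls are 5.00% of the 60, close to the 3.73% of all genes. With the block 19 were higher and 10 lower, together 48.3% of the 60 against 22.5% of all genes. The median log2 fold change over the 60 was 0.03.

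In the list of the destruction complex and regulators of beta-catenin stability, 1 of 17 genes rose and 16 did not pass (median log2 fold change 0.08). It was GSK3A, one of the kinases that mark beta-catenin for breakdown, with 87.9, 80.2 and 89.2 CPM in the parental-labelled and 112, 107 and 108 CPM in the Ptc+-labelled libraries. GSK3A differed by 0.35 (log2, SE 0.0740, adjusted p = 0.0389), a call lost on leaving out any 1 library other than parental replicate 1 (adjusted p up to 0.156). Its partner kinase GSK3B stood at -0.06, APC at 0.26 and AXIN1 at 0.08 (log2), none of which passed. The Dishevelled gene DVL1 (0.44, adjusted p = 0.144) and APC2 (0.43, adjusted p = 0.279) had larger values without passing, and 6 genes were higher and 1 lower with the block, APC, APC2 and DVL1 among the higher.

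Of the co-receptors and the R-spondin axis, LRP5, a co-receptor of Frizzled, was lower in the Ptc+-labelled libraries. Its values were 64.6, 48.9 and 63.2 CPM against 35.6, 39.8 and 42.9 CPM, or -0.58 on the log2 scale (SE 0.120, adjusted p = 0.0348). The call was lost without parental replicate 3 or any 1 of the Ptc+-labelled libraries (adjusted p up to 0.132). LRP6, the closest relative, stood at 0.18 (adjusted p = 0.705 without and 0.0111 with the block). RSPO1, RSPO2 and RSPO3, ligands of LGR5, had no counts, and RSPO4 had 16 to 49 counts per library and differed by 0.99 (log2, adjusted p = 0.0829, blocked 0.00841). LGR4 stood at 0.22 (adjusted p = 0.446, and 0.0179 with the block). In all 1 of the 6 tested genes of this list was lower, 5 did not pass, and the median was 0.11 (log2), while the blocked fit called 3 higher and 1 lower.

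Among 13 tested genes of 17 other described beta-catenin targets, AFF3 fell and 12 did not pass (median log2 fold change 0.02). AFF3, a nuclear factor described as a beta-catenin target in adrenocortical cells, had 112, 135 and 138 CPM in the parental-labelled and 89.2, 90.3 and 92 CPM in the Ptc+-labelled libraries, without overlap. Its log2 fold change was -0.50 (SE 0.0924, adjusted p = 0.0208), opposite in sign to LGR5 and LEF1. The call was lost without parental replicate 2, parental replicate 3, Ptc+ replicate 2 or Ptc+ replicate 3 (adjusted p up to 0.0954). MYC stood at -0.21 (adjusted p = 0.188, and 0.00598 with the block), CCND1 at -0.51 (adjusted p = 0.263) with 20 to 41 counts per library, and the adhesion receptor CD44 at 0.57 (adjusted p = 0.157, and 4.81e-04 with the block). TNFRSF19 at 0.01 and TBX3 at -0.12 (log2), both well expressed, did not pass. The blocked fit called 4 genes of this list higher and 2 lower. ASCL2, a transcription factor of intestinal stem cells, was among the 4 genes under the filter, with 0 counts in each parental-labelled library and 14, 4 and 3 in the Ptc+-labelled ones, and was called higher only when no filter was applied.

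None of the 19 nuclear partners and co-repressors was called without the block by edgeR, DESeq2 or limma-voom on all 6 libraries. By edgeR 1 was higher and 2 lower at an unadjusted p under 0.05, and the median log2 fold change was -0.03. TLE4 (-0.26, adjusted p = 0.298, and 0.00292 with the block) was called without parental replicate 1. Without both code 1801 libraries TLE4, CTBP2 and TBL1XR1 were among those called. The values with the largest size were TCF7L1 at -0.73, on 7 to 30 counts, the adaptor TBL1XR1 at -0.31 and the co-repressor CTBP2 at -0.29 (adjusted p = 0.397, 0.270 and 0.0956). The blocked fit called 4 genes of this list higher and 4 lower, with TBL1XR1 (adjusted p = 7.98e-05) and CTBP2 (adjusted p = 0.000815) among the lower and TCF7L1 not called (adjusted p = 0.0752). Of the 5 tested junctional partners none was called by the main edgeR fit or by limma-voom. DESeq2 called 2, CTNNA2 and CDH2, and 1 was higher and 2 lower at an unadjusted p under 0.05 by edgeR. CTNNA2 and CDH2 also passed in edgeR without a filter, without parental replicate 1 and without both code 1801 libraries. CTNNA2, an alpha-catenin that links beta-catenin to actin, stood at -0.51 (adjusted p = 0.0518, and 2.09e-05 with the block), CDH2 at -0.50 (0.132, and 7.12e-07 with the block) and plakoglobin, JUP, at 0.27 (0.181, and 0.00369 with the block). With the block 2 of the 5 were higher and 2 lower.

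**Figure D4:**
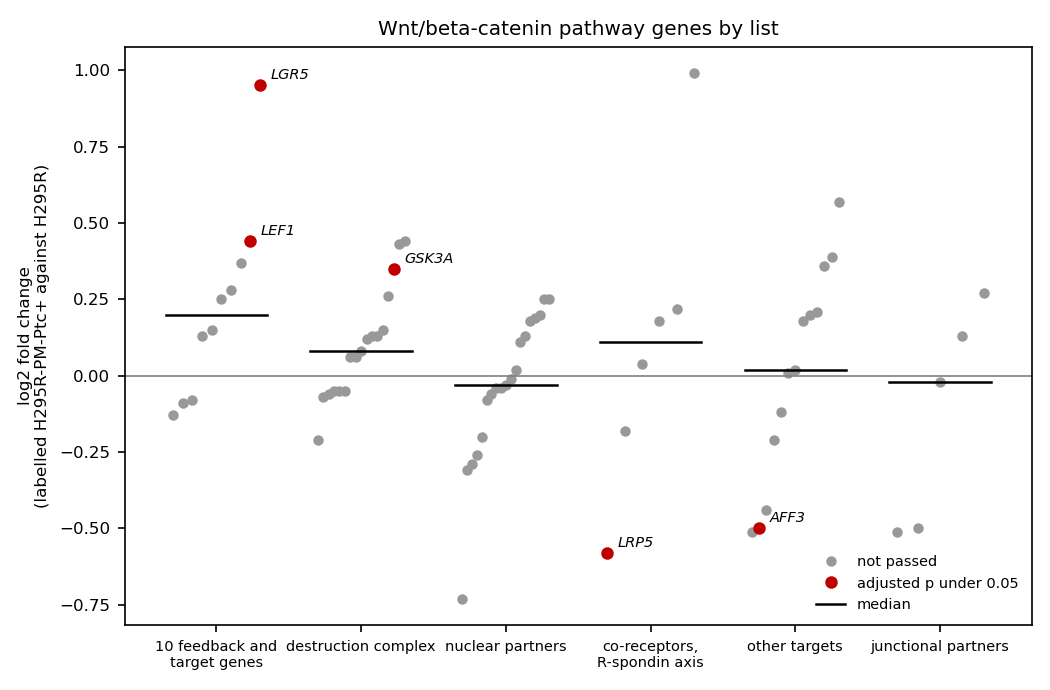
Log2 fold changes, Ptc+-labelled over parental-labelled libraries, of the 10 feedback and target genes and of the tested genes of 5 pathway lists, one point per gene, with red for an adjusted p under 0.05 and a black line at each median. The 5 called genes are LGR5, LEF1 and GSK3A above 0 and LRP5 and AFF3 below, and the medians of the 5 lists lie between -0.03 and 0.11.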

How the data were processed

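Per the labels and the study's methods, paired reads of stranded libraries went through STAR 2.4.0a (hg38), and featureCounts summed fragments by Ensembl gene name with a strand setting, taking multiply mapped reads at their primary alignment. The sources differ on the library kit (total RNA or mRNA) and on the featureCounts version. The authors deposited raw counts without normalization. A row with no gene name (spike-ins, 0 counts) was left out.

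Counts were filtered with filterByExpr, scaled with TMM and passed to the two-sided quasi-likelihood test of edgeR 4.0.16 (R 4.3.3, glmQLFit and glmQLFTest) with 1 term for group and all 6 libraries, with adjustment over 16710 genes at 0.05. Standard errors and 95% confidence intervals came from the same fit, and CPM use TMM-scaled totals. On simulated counts with 200 genes changed 2-fold, edgeR recovered 80.0%, DESeq2 80.5% and limma-voom 79.5% of them, and the share of false calls was 5.33%, 14.8% and 3.64%. The deviations of same-numbered replicates from their group means correlated at 0.594, 0.405 and 0.325, against -0.443 to 0.211 for other numbers, so the numbers, which stand for shared codes in the labels, pair the libraries, and a fit with the replicate number as a block is given where it changes a call. Correlations used log2(CPM + 0.5).

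Alternatives were DESeq2 1.42.0, limma-voom (limma 3.58.1), relative log expression size factors, no filter, at least 10 counts in every library, the block, each library left out in turn and, chosen after seeing the data, both code 1801 libraries left out. The members and lists were chosen with earlier results of these data known. The text names all members, each called list gene, the 3 genes of each list with the largest change and the 5 genes most like AXIN2, of which 1 is not reported here. APC, AXIN1, GSK3B, LRP6, TLE4, MYC, TNFRSF19, TBX3, ASCL2 and the called neighbors of LGR5 and LEF1 were added after their values were seen.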

Additional observations from a re-analysis of the deposited data

How the results depend on the processing

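Over the 10 members and 13 alternatives, 115 log2 fold changes kept their direction and side of the threshold, 9 came to pass, 2 no longer passed and 4 changed sign. With the replicate block the calls rose from 624 to 3758 genes, from 2 to 7 members and from 3 to 29 pathway list genes, and AXIN2 (0.13), NKD1 (0.14), NOTUM (0.24), ZNRF3 (0.37) and RNF43 (0.28) passed. Without a filter on low counts 1111 genes, 3 members and 9 list genes passed, ZNRF3 (0.36) among them. DESeq2 called 911 genes, 2 members and 5 list genes. Without both libraries of code 1801, 2013 genes, 4 members and 17 list genes passed, with ZNRF3 at 0.36 and RNF43 at 0.32. Leaving out each library in turn gave 219 to 810 genes, 1 to 3 members and 0 to 9 list genes. The members numbered 1 without H295R replicate 3 and without H295R-PM-Ptc+ replicate 3, and no list gene passed without H295R replicate 3, H295R-PM-Ptc+ replicate 2 or H295R-PM-Ptc+ replicate 3. Over these fits LEF1 ranged from 0.42 to 0.47, RNF43 from 0.22 to 0.36 (passing without H295R replicate 1), NKD1 from -0.01 to 0.33 and APCDD1 from -0.17 to 0.06, the last 2 changing sign without passing (all log2). The causes were not tested. Genes under about 50 counts, such as CCND1, RSPO4 and TCF7L1, have wide intervals.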
